A study of Homo sapiens with 3 samples.

Results

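The transcripts described here encode 10 feedback inhibitors of mitogen-activated protein kinase (MAPK) signalling: the phosphatases DUSP1, DUSP2, DUSP4, DUSP5, DUSP6 and DUSP7, the Sprouty proteins SPRY1 and SPRY2, and the Sprouty-related proteins SPRED1 and SPRED2. Their rows were taken by gene symbol, 10 of the 25247 symbols in the tables, and each had 1 row of its own. They were measured by RNA sequencing in OCI-AML2 R50 cells, a form of OCI-AML2, which is an established line of human acute myeloid leukaemia (AML). There was 1 library labelled control and there were 2 libraries from cells given romidepsin, a histone deacetylase inhibitor selective for class I enzymes, for 18 h. The labels differ on the first: its treatment label reads control, while a protocol note carried by all 3 libraries names romidepsin, and each difference below rests on the treatment label. Cells of both groups grew in MEMα medium with 15% fetal serum and 50 µM cytarabine, the nucleoside analogue of AML chemotherapy, so the control is not free of that drug. The sources used here do not give the romidepsin dose, any vehicle in the control, the meaning of R50 or whether the treated libraries came from separate cultures.

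In the MAPK cascade, an activated receptor loads RAS with GTP, RAS recruits RAF kinases, RAF activates the MEK kinases, and MEK activates ERK by phosphorylating a threonine and a tyrosine of its activation loop. Active ERK raises the transcription of genes whose products shut the cascade down. The dual-specificity phosphatases (DUSP) remove both phosphates from ERK or its relatives p38 and JNK, while Sprouty and SPRED proteins act upstream, between the receptor and RAF. In blood cells this feedback limits signals from growth factor and cytokine receptors.

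Levels are in FPKM, fragment counts scaled by transcript length and by library depth, as the authors deposited them. The 10 genes were chosen by family and with their FPKM in these 3 libraries known, so their differences between control and romidepsin are given as a description with no test. Differences are on the log2(FPKM + 1) scale, where changes of low genes come out smaller than their FPKM ratio. All 10 passed the filter used for other genes (at least 1 FPKM in at least 1 library), and 9 had at least that level in the control. DUSP4 was under 1 FPKM there and passed only through the romidepsin libraries. In bulk RNA, fewer expressing cells and less RNA per cell cannot be told apart.

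The libraries had about 19000000 fragments in the control and 23000000 in each romidepsin library, estimated from the steps and ratios of low values. The control summed to 790922 FPKM, above the 668773 and 657213 FPKM of the treated libraries. Of 8 myeloid markers, 7 had at least 1 FPKM in all 3 libraries, while 3 erythroid and 4 epithelial markers were listed at or near 0. The myeloid sum was 5593 FPKM in the control but 3632 and 3577 FPKM in the treated libraries. LYZ held most of this sum, going from 4258 to 2630 and 2596 FPKM. MPO, SPI1 and CD33 were also lower in both treated libraries, while PTPRC, CEBPA, CD68 and ANPEP were higher in both. The lower sum thus does not describe each myeloid marker. Sums of 4 markers each went from 0.216 to 1.06 and 1.01 FPKM for T cells and from 0.952 to 2.27 and 2.36 FPKM for B cells, with MS4A1 listed at 0 throughout. The 4 fibroblast markers summed to 0.608 FPKM in the control but to 7.61 and 7.33 FPKM in the treated libraries, with COL1A2 listed at 0 throughout. Their part in the results was not tested.

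The phosphatase genes DUSP6, DUSP4 and DUSP5 were higher in both romidepsin libraries, and the phosphatase gene DUSP2 was lower in both. The other 6 genes, DUSP1 and DUSP7 among them, stayed within 1.34-fold of the control. On the log2(FPKM + 1) scale, 3 of 10 were at least 2-fold higher in both libraries, beside 7.43% of the 11708 tested genes. On the same scale 0 of 10 were at least 2-fold lower in both, beside 3.08% of tested genes. DUSP2 was just short of it there, although its FPKM was 0.465 and 0.484 times the control. Ignoring size, 6 were higher in both libraries (43.8% of tested genes), 3 were lower in both (51.4%) and DUSP7 was split. Nothing is read from these shares, since the same values picked the genes. The median difference of the 10 was 0.29, beside -0.05 over all tested genes. Scaling each library to the same FPKM sum moved the median of all genes by 0.21, to 0.16, and that of the 10 genes to 0.49.

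**Figure D1:**
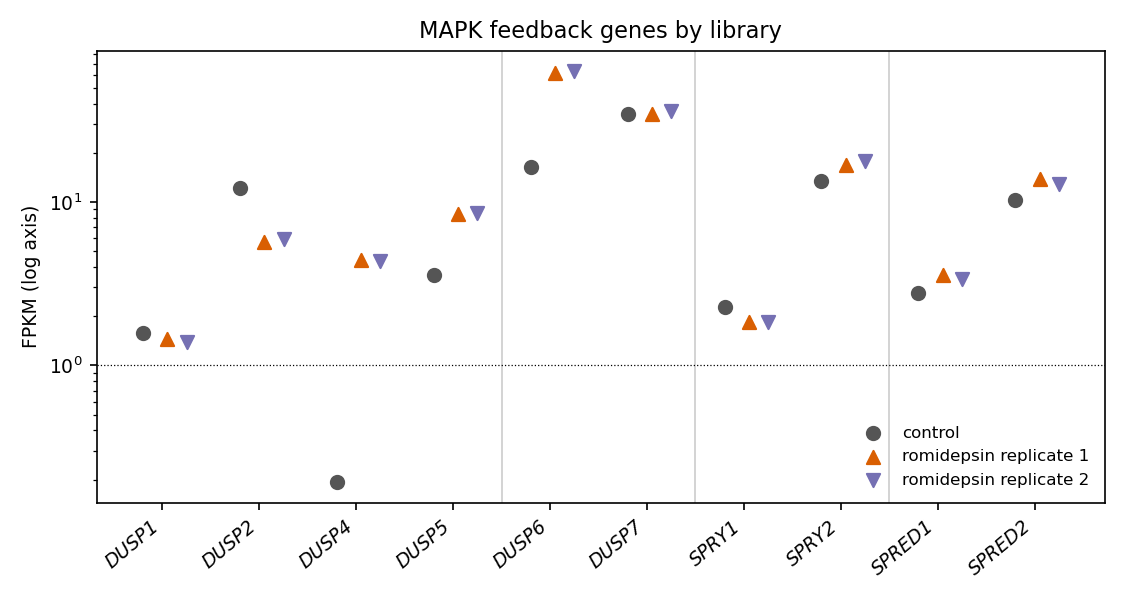
FPKM of the 10 genes on a log axis, with 1 point per library (grey circle, control; triangles, romidepsin replicates 1 and 2); the dotted line marks 1 FPKM. The romidepsin pair lies together for each gene, well above the control for DUSP4, DUSP5 and DUSP6 and below it for DUSP2.

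DUSP6 encodes a cytoplasmic phosphatase with high selectivity for ERK, and its transcript is a widely used readout of ERK output. DUSP6 was at 16.2 FPKM in the control and at 61.8 and 63.0 FPKM in the romidepsin libraries. Both treated libraries lay far above the control, and the gap between them was 1.22 FPKM. The mean of 62.4 ± 0.865 FPKM (SD, n = 2) was 3.84 times the control, a difference of 1.88 on the log2 scale. Among tested genes, its level stood at percentile 57.5 in the control and 88.1 and 88.4 after romidepsin. The difference kept its size under the other scalings, at 2.11 with equal sums and 1.98 with quantile normalization.

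DUSP7 encodes the closest relative of DUSP6 in the set, also a cytoplasmic phosphatase of ERK. DUSP7 was at 34.7 FPKM in the control and at 34.6 and 35.8 FPKM after romidepsin. The control value lay between the treated libraries, so the groups overlapped. Its mean of 35.2 ± 0.843 FPKM (SD, n = 2) differed from the control by 0.566 FPKM, less than the SD of the pair. With equal sums the log2 difference was 0.26 and with quantile normalization 0.16, beside 0.02 as deposited.

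The balance of the cytoplasmic phosphatases was therefore different in the treated libraries. The ratio of DUSP6 to DUSP7, which a constant factor per library leaves as it is, was 0.469 in the control and 1.78 and 1.76 after romidepsin.

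DUSP4 encodes an inducible nuclear phosphatase that acts on ERK and JNK. DUSP4 was at 0.194 FPKM in the control and at 4.39 and 4.33 FPKM after romidepsin, the largest log2 difference of the 10 genes at 2.17. The control value corresponds to about 21 fragments and the treated values to about 550 and 540, taking the longest coding transcript of 5537 bases. The ratio of the means was 22.5, and the log2 difference was 3.93 with a pseudocount of 0.1. With quantile normalization it was 1.64, below the 1.98 of DUSP6. Even so, its treated level stood only at percentiles 23.6 and 23.1 among tested genes, up from 1.74.

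DUSP5 encodes a nuclear phosphatase specific for ERK, which also anchors ERK in the nucleus. DUSP5 was at 3.56 FPKM in the control and at 8.46 and 8.62 FPKM after romidepsin. The treated pair lay above the control with a gap of 0.154 FPKM within the pair. The mean of 8.54 ± 0.109 FPKM (SD, n = 2) was 2.40 times the control and the log2 difference 1.06, just past 2-fold on this scale. With quantile normalization the difference was 0.93, which is short of it. DUSP5P1, a pseudogene copy of DUSP5, had 3.32 FPKM in the control, 6.83 FPKM in romidepsin replicate 1 and 6.21 FPKM in replicate 2. Reads of the copy and the gene may have been split by the authors' counting, so the level of DUSP5 is uncertain to that extent.

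DUSP2 encodes a nuclear phosphatase of activated leukocytes that acts on ERK and p38. DUSP2 was at 12.2 FPKM in the control and at 5.68 and 5.91 FPKM after romidepsin. Both treated libraries lay below the control. The control was 2.11 times the romidepsin mean of 5.79 ± 0.161 FPKM (SD, n = 2). The log2(FPKM + 1) difference was -0.96, just short of 2-fold on this scale although the FPKM ratio was past it. With a pseudocount of 0.1 the difference was -1.06. DUSP2 was lower with equal sums too, by a smaller difference of -0.74. Its percentile among tested genes was 49.8 in the control and 29.3 and 30.2 after romidepsin.

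DUSP1 encodes the immediate-early nuclear phosphatase of p38, JNK and ERK, whose transcript appears within minutes of stress or growth factor in many cells. DUSP1 was low in all libraries, at 1.57 FPKM in the control, 1.44 FPKM in romidepsin replicate 1 and 1.39 FPKM in replicate 2. These levels correspond to only about 61, 66 and 63 fragments. The 95% exact Poisson interval of the control, which covers counting error only, ran from 1.2 to 2.02 FPKM and held both treated values, so a difference of this size was not detectable at this depth. The log2 difference was -0.09 as deposited, 0.05 with equal sums and -0.44 with quantile normalization, so its direction depends on the scaling.

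Within the nuclear group, genes of opposite direction largely offset each other as deposited. The summed FPKM of DUSP1, DUSP2, DUSP4 and DUSP5 was 17.5 in the control, 20.0 in romidepsin replicate 1 and 20.2 in replicate 2, 1.15 times the control. Its make-up differed more than its sum. The ratio of DUSP5 to DUSP2 was 0.292 in the control and 1.49 and 1.46 after romidepsin, and that of DUSP4 to DUSP1 was 0.123 against 3.04 and 3.12. DUSP2 was thus the leading nuclear phosphatase transcript in the control and DUSP5 in both treated libraries. With equal sums the log2 differences were 2.26 for DUSP4, 1.26 for DUSP5 and -0.74 for DUSP2. The summed level of the group was not recomputed on that scale.

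**Figure D2:**
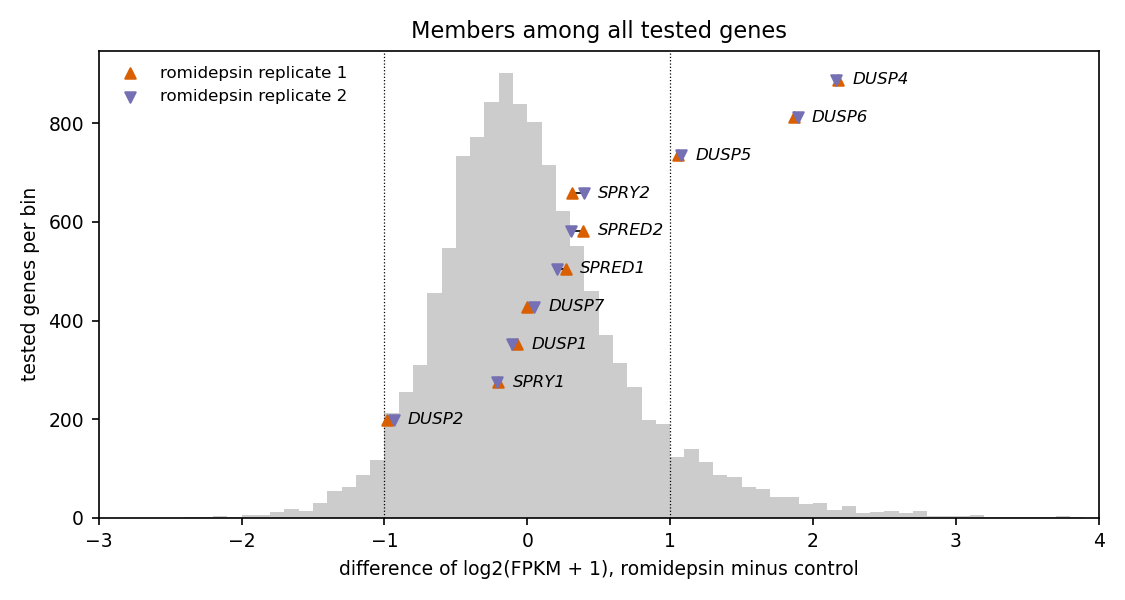
Grey bars count tested genes by their mean log2(FPKM + 1) difference, romidepsin minus control (bins of 0.1; 5 genes lie beyond the right edge); triangles give each romidepsin library's difference for the 10 genes at arbitrary heights, and dotted lines mark 2-fold. DUSP4, DUSP6 and DUSP5 lie right of the 2-fold line, DUSP2 beside the line on the left, and the other 6 in the body of the distribution.

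Sprouty proteins are phosphorylated on a conserved tyrosine after receptor activation and dampen signalling from receptor to RAS and RAF. SPRY2, the more abundant of the pair, was at 13.4 FPKM in the control and at 16.8 and 17.9 FPKM after romidepsin. Both treated values were above the control, and the mean of 17.3 ± 0.768 FPKM (SD, n = 2) was 1.30 times it. SPRY1 was at 2.28 FPKM in the control and at 1.85 and 1.83 FPKM after romidepsin, a log2 difference of -0.21 as deposited, -0.05 with equal sums and -0.50 with quantile normalization. About 110 fragments stand behind SPRY1 in each library. Its control interval for counting error, 1.89 to 2.74 FPKM, began just above both treated values. The treated intervals, 1.52 to 2.24 and 1.5 to 2.21 FPKM, overlapped that of the control. The ratio of SPRY2 to SPRY1 was 5.85 in the control and 9.06 and 9.77 after romidepsin.

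SPRED proteins bind neurofibromin, the RAS GTPase-activating protein encoded by NF1, and bring it to the membrane. SPRED2 was at 10.3 FPKM in the control and at 13.8 and 12.9 FPKM in the treated libraries, 1.30 times the control on average. SPRED1 was at 2.78 FPKM in the control and at 3.57 and 3.36 FPKM after romidepsin, a ratio of 1.25. Both treated values of each gene lay above the control. Under quantile normalization the SPRED1 difference of 0.24 on the log2 scale shrank to 0.00629. The ratio of SPRED2 to SPRED1 was 3.69 in the control and 3.87 and 3.84 after romidepsin, the most even of the ratios computed between family members.

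The order of levels also differed. In the control DUSP7 led, followed by DUSP6, SPRY2, DUSP2, SPRED2, DUSP5, SPRED1, SPRY1, DUSP1 and DUSP4; with 1 library, neighbours there have no measured spread. Both romidepsin libraries gave the same order as each other: DUSP6, DUSP7, SPRY2, SPRED2, DUSP5, DUSP2, DUSP4, SPRED1, SPRY1 and DUSP1. In it, each pair of neighbours was further apart than the SDs of the treated pair. SPRY2 and SPRED2, the closest high neighbours, were at 17.3 ± 0.768 and 13.3 ± 0.621 FPKM (SD, n = 2). DUSP4, the lowest of the 10 in the control, stood above SPRED1, SPRY1 and DUSP1 in the treated libraries, and DUSP2 stood below SPRED2 and DUSP5 there.

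Summed over the 10 genes, the level was 97.1 FPKM in the control, 152 FPKM in romidepsin replicate 1 and 155 FPKM in replicate 2. The treated mean was 1.58 times the control as deposited and was not recomputed with equal library sums. Most of the added level was DUSP6, whose mean was 46.1 FPKM above the control. DUSP6 made up 16.7% of the sum in the control and 40.5% and 40.6% after romidepsin. The share of DUSP7 was smaller after romidepsin, at 22.7% and 23.1% against 35.7%. DUSP2 went from 12.6% to 3.73% and 3.81%, and the Sprouty pair from 16.1% to 12.2% and 12.7%.

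**Figure D3:**
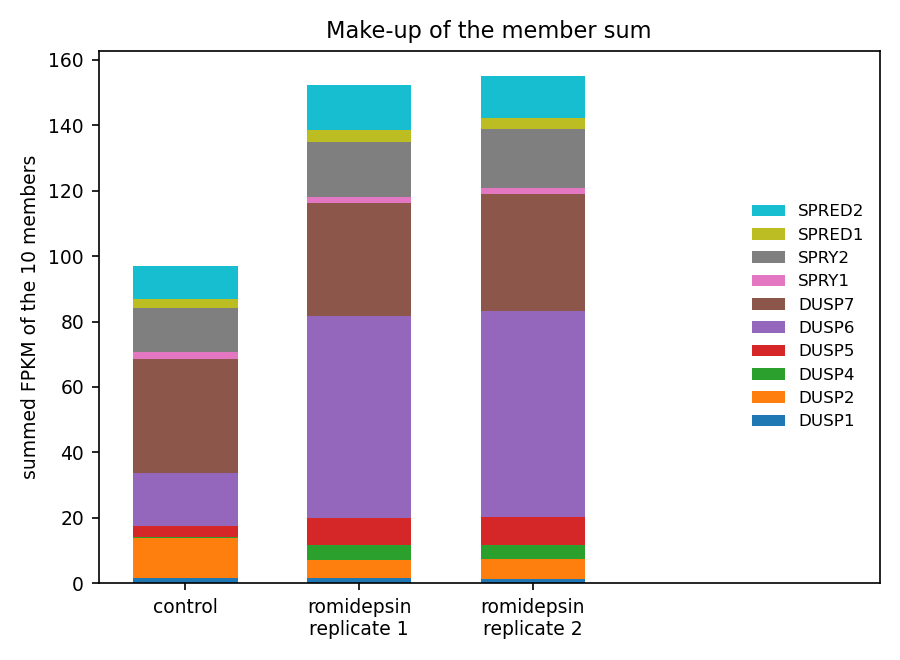
Stacked bars of the FPKM of the 10 genes in each library, starting at 0. The bar of the control reaches 97.1 FPKM and those of romidepsin replicates 1 and 2 reach 152 and 155 FPKM, with DUSP6 as the widest band of both treated bars.

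Promoter windows are shown for 3 members: DUSP6, the gene with the largest added level, DUSP2, the lower gene, and DUSP1. The DUSP1 window holds the only full cAMP response element among the 8 members that had a window. RefSeq (GRCh38.p14) gave 12 windows for 8 members, each with 250 bases before and 50 bases after an annotated start. DUSP4 and DUSP5 had no entry. The motifs searched on both strands were the cAMP response element TGACGTCA and its core TGACG, which the full element contains, AP-1 (TGANTCA), the CArG box of serum response factor, ETS (CCGGAA), the E-box CACGTG, the TATA box TATAAA and the GC box GGGCGG. Capitals mark matches to any of these except the GC box, and touching matches run together.
DUSP6, chr12:89352452-89352751, minus strand: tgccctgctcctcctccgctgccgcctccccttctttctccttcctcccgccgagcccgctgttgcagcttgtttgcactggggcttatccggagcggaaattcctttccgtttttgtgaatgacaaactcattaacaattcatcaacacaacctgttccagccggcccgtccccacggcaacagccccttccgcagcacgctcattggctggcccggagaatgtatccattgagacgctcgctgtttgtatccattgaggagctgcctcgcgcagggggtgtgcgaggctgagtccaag
DUSP2, chr2:96145391-96145690, minus strand: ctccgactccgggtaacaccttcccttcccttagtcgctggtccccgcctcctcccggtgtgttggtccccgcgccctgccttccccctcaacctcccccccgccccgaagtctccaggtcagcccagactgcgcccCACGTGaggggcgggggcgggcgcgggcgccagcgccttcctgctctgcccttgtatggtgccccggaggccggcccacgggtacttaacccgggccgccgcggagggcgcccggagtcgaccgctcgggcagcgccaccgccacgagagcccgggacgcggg
DUSP1, chr5:172771146-172771445, minus strand: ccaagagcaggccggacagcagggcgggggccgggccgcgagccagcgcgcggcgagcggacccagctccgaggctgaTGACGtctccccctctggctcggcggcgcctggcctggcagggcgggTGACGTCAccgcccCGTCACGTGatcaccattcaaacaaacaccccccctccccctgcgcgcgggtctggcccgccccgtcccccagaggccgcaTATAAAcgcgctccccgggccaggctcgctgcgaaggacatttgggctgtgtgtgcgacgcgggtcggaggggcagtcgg

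The DUSP6 window held none of the 8 motifs, which says only that these letters are not in it. The DUSP2 window held an E-box at -113 from the start and 3 GC boxes. In the DUSP1 window lay the full cAMP response element at -125, 4 core matches (2 of them within that element), an E-box at -108, a TATA box at -30 and 4 GC boxes. Over all 35116 windows of the table, a full cAMP response element was found in 1.85%, an E-box in 7.26%, a TATA box in 11.5% and a GC box in 45.0%. ETS letters were found in 1 window each of SPRY1 and SPRY2 (17.2% of all windows). AP-1 letters were in 1 window of SPRED2 (7.71%), and no member window held a CArG box (1.29%). The cAMP response element core was also found in SPRED2 and SPRY2 (24.6% of all windows) and a TATA box also in SPRED2. GC boxes were also found in DUSP7, SPRY1, SPRY2, SPRED1 and SPRED2. Each match is a description of letters and was not tested as a binding site. The GC content was 58.3% for DUSP6, 75% for DUSP2 and 73.3% for DUSP1, beside a median of 58.7% over all windows.

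Other genes of the pathway, from lists that leave out the 10 members, were tested with limma, with Benjamini-Hochberg adjustment over all 11708 genes. Calls are common in these libraries: 76.5% of tested genes were called, 34.7% higher and 41.8% lower. The fit takes its spread from the close romidepsin pair and assumes that the lone control varies likewise. Whether this makes calls common was not tested. A permutation of the 3 labels alone cannot give p below 0.333. With equal sums, 5705 of the 11708 genes were called higher and 3069 lower, so 65.0% of calls were higher instead of 45.3%. With quantile normalization, 3707 were called higher and 4387 lower. List counts under these scalings stand beside these shifts of all genes. The lists were chosen with earlier results of these data known, so their counts are a description and no list was tested as a set.

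Among the remaining relatives, DUSP10, which encodes a phosphatase of p38 and JNK, rose from 4.55 FPKM to 15.9 and 16.3 FPKM (limma adjusted p = 5.85e-07). Its log2 difference of 1.62 lies between those of the members DUSP5 and DUSP6. DUSP16, a JNK phosphatase gene, was at 3.98 FPKM and at 4.51 and 4.53 FPKM (adjusted p = 0.116), and was called higher only with equal sums (adjusted p = 0.0066). DUSP8 and DUSP9 were under 1 FPKM throughout. SPRY4 rose from 3.05 FPKM to 6.47 and 7.12 FPKM (adjusted p = 3.15e-05), a larger log2 difference (0.94) than the 0.35 of the member SPRY2. It is counted again among the ERK-responsive transcripts below. SPRED3 stayed under 1 FPKM and SPRY3 was listed at 0. Of 10 tested atypical DUSP genes, most of whose products lack the kinase-binding domain, 3 were called higher and 5 lower, against 4 and 2 with equal sums. DUSP3 fell from 28.5 FPKM to 17.0 FPKM in both libraries (adjusted p = 8.44e-06), and DUSP28 fell to 1.86 and 2.14 FPKM, 0.571 times its control level (adjusted p = 0.00147).

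Upstream and at the level of the kinases, calls went both ways. Of 15 RAS activators and adaptors, 2 rose and 6 fell (median -0.08), but 6 were higher and 3 lower with equal sums (median 0.09). RRAS rose from 1.74 FPKM to 9.46 and 9.51 FPKM, and RASGRP2, a RAS-family exchange factor gene, fell from 105 FPKM to 41.2 and 41.9 FPKM (adjusted p = 6.21e-07 and 2.96e-07). Of 14 RAF, MEK and ERK genes and scaffolds, 8 rose and 2 fell (median 0.21; 11 and 1 with equal sums). MAP2K1, which encodes MEK1, rose from 21.8 FPKM to 69.0 and 69.6 FPKM, and MAPK3, which encodes ERK1, from 16.2 FPKM to 29.8 and 30.4 FPKM (adjusted p = 1.6e-07 and 3.12e-06). Of 16 p38 and JNK cascade genes, 5 rose and 3 fell (median 0.05; 10 and 2 with equal sums, 7 and 5 with quantile normalization).

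Transcripts listed as responding to ERK were mostly called higher. Of 14 tested, 11 rose and 2 fell, beside 34.7% and 41.8% of all tested genes. Their median was 1.21 (0.95 with quantile normalization), beside -0.05 over all tested genes. CCND1 and EGR2, 2 of the 14, were under 1 FPKM in the control, so the filter fixed their direction. FOS rose from 4.68 FPKM to 21.4 and 19.4 FPKM and ZFP36, an mRNA decay factor gene, from 30.8 FPKM to 98.7 and 98.3 FPKM, while MYC fell 3.08-fold (adjusted p at most 6.17e-07 for the 3 genes). FOSL1 fell from 5.12 FPKM to 2.64 and 3.49 FPKM (adjusted p = 0.00389), but without the filter it was not called (adjusted p = 0.114). Of 14 kinases and factors downstream of ERK, 10 rose and 3 fell (median 0.61). Of the 10, RPS6KA2 was at 0.0721 FPKM in the control and was tested only through its 2.11 and 1.91 FPKM in the treated libraries, so the filter fixed its direction. ETS1 rose from 8.18 FPKM to 27.4 and 28.9 FPKM (adjusted p = 4.25e-07).

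Other brakes on the cascade were set beside the members. Of 17 other inhibitors of RAS and RAF, 12 rose and 3 fell (median 0.33, or 0.51 with equal sums). PEBP1, which encodes a RAF kinase inhibitor protein, fell from 190 FPKM to 96.0 and 92.8 FPKM (adjusted p = 7.14e-07). ERRFI1, a receptor feedback inhibitor gene, rose from 0.700 FPKM to 3.13 and 2.36 FPKM (adjusted p = 0.000232), and was tested only through the romidepsin libraries. Of 6 tested serine and tyrosine phosphatase genes listed as acting on ERK, 2 rose and 3 fell. Their median was -0.25 as deposited and -0.01 both with equal sums and with quantile normalization. PTPRJ, a receptor tyrosine phosphatase gene, rose from 15.5 FPKM to 21.9 and 22.2 FPKM (adjusted p = 6.5e-05). PTPN7, a haematopoietic tyrosine phosphatase gene whose product acts on ERK, fell from 156 FPKM to 60.8 and 58.3 FPKM (adjusted p = 3.22e-07). It was thus at a higher FPKM than any of the 10 members in the control and just below DUSP6 after romidepsin.

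**Figure D4:**
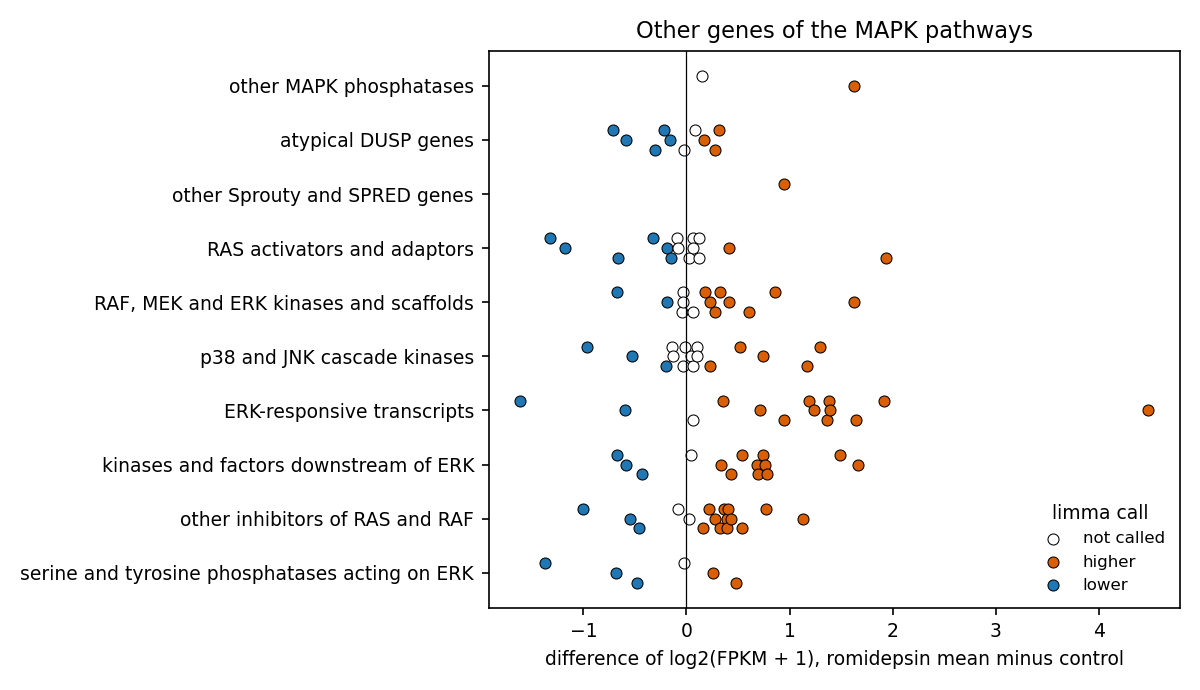
Difference of log2(FPKM + 1), romidepsin mean minus control, for each tested gene of the 10 pathway lists (members left out), coloured by limma call (orange, higher; blue, lower; white, not called); vertical jitter within a list has no meaning. Of 14 ERK-responsive transcripts 11 are orange, and IER3 lies furthest right.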

How the data were processed

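RNA of OCI-AML2 R50 cells was sequenced in 1 control and 2 romidepsin libraries. Values are the FPKM per gene symbol that the authors deposited, per the file headers. The submitters' processing notes name TopHat, Cufflinks, Cuffdiff and hg19, and the sources used here do not give versions, settings or annotation. The 1770 rows with no gene name (21.1% to 22.3% of summed FPKM) and 27 rows named by a number were left out, and rows of a symbol were summed. Genes with at least 1 FPKM in at least 1 library (11708) were fitted on log2(FPKM + 1) with limma 3.58.1 in R 4.3.3. The fit used eBayes with trend (1 residual and 6.06 prior degrees of freedom) and a Benjamini-Hochberg threshold of 0.05. It was first run on simulated data with few changed genes, where all 3 libraries had a spread modelled on the romidepsin pair. That run cannot say whether the lone control varies like the pair. Nothing says that the libraries came from separate cultures, so p-values reflect library spread alone, which may be technical.

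The members and lists were chosen with earlier results of these data known. All 10 members are named, and from each list genes were drawn from the 3 highest and 3 lowest called differences, plus every gene of lists of 4 or fewer; CCND1, EGR2 and DUSP5P1 were named after their values were seen. Depth was estimated from low-value steps of single-transcript GENCODE v29 genes of at least 2000 bases, a different build, so fragment numbers are approximate. The step was searched within a preset range, and depth relative to the control was the commonest ratio of low values. The Poisson intervals rest on these estimates. Alternatives changed the pseudocount, filter, scaling, trend, row choice and romidepsin library. Tables were made with Python 3.11.15, numpy 2.4.6 and pandas 2.3.3, and plots with matplotlib 3.10.9.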

Additional observations from a re-analysis of the deposited data

How the results depend on the processing

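Across the alternatives run, the number of members at least 2-fold higher was 3, except 2 with quantile normalization, where DUSP5 was short of it; leaving out either romidepsin library gave 3. The number at least 2-fold lower was 0, except 1 (DUSP2) with a pseudocount of 0.1. Over all genes, scaling to the same sum called 3069 lower instead of 4896. The 2-fold rule gave 1308 higher and 543 lower with a pseudocount of 0.1, which understates low genes less, 463 higher with a mean of at least 5 FPKM, where fewer genes are tested, and 172 lower after the scaling to equal sums, beside 870 and 361 as reported. Leaving out either romidepsin library gave 951 to 957 higher and 424 to 429 lower.

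Directions turned as follows, and the cause was not tested. With scaling to the same sum DUSP1 was 0.0545 higher, YWHAB 0.0509 higher and MAP3K4 0.0131 higher, and the medians of atypical DUSP genes and of RAS activators and adaptors became 0.14 and 0.0894, and with no filter these medians were 0.0519 and 0.0184. With quantile normalization DUSP16 was at -0.0364 and YWHAB at 0.0786. DUSP16 was called in neither fit, while YWHAB was called lower as deposited and higher with quantile normalization. DUSP7 lay between -0.00124 and 0.0463 with either romidepsin library left out. DUSP14 lost its call with no filter (adjusted p = 0.216), MAP3K4 likewise (adjusted p = 0.0824), and DUSP11 after the scaling to equal sums (adjusted p = 0.222). Over the pathway lists together, 43 to 72 genes were called higher and 19 to 27 lower. No paired analysis was possible because there was only 1 control library. Depth limits DUSP1, SPRY1 and DUSP4, which rest on about 110 fragments or fewer in the control.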

Other observations

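The long RNA SPRY4-IT1, which overlaps SPRY4, was at 0.210 FPKM in the control, 0.268 FPKM in romidepsin replicate 1 and 0.269 FPKM in replicate 2, under the 1 FPKM needed for a test. The joint row of DUSP5P1 and its neighbour RHOU was at 28.5 FPKM in the control, 33.7 FPKM in romidepsin replicate 1 and 35.1 FPKM in replicate 2 (limma adjusted p = 0.0013).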
